A study of Homo sapiens with 11 samples.

Results

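The proteasome is the barrel-shaped protease that degrades proteins tagged with ubiquitin, and its genes were examined here in HEK293T cells transfected with wild type or mutant DFNA5. Members were the genes whose symbol in the array annotation starts with PSMA, PSMB, PSMC, PSMD, PSME, PSMF or PSMG followed by a digit, together with POMP. Of 18836 named genes, 48 met this rule. Of these, 45 encode subunits, regulators or assembly factors of the proteasome, and 38 of the 45 were detected well enough to be tested. The other 3 share only the prefix: PSMD6-AS2 and PSMG3-AS1 are antisense transcripts, and PSME3IP1 encodes a protein that binds a proteasome regulator.

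HEK293T is a human embryonic kidney cell line that carries the SV40 large T antigen and takes up plasmids readily. DFNA5 (now GSDME) is a deafness gene of the gasdermin family, and the mutant construct is a cDNA that lacks the exon skipped in families with hearing loss. The wtDFNA5 group held 5 arrays and the mutDFNA5 group 6, each a lipofectamine transfection of the same cell line described as a separate biological replicate. Both groups received a plasmid, and no empty-vector arrays were analysed here. The labels give a harvest at 6 h in one protocol and RNA extraction at 12 h after transfection in another, so they do not settle the time point. In its results, the study places RNA collection for these arrays at 12 h. All values below are quantile-normalized log2 signals of single probes on Illumina beadchips. Changes use wtDFNA5 as the reference, so a positive value is higher in mutDFNA5, and a gene is called when the limma p-value adjusted over all probes tested is under 0.05.

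On each array, 14029 to 15443 of 42000 probes were detected at a detection p under 0.01. Of 6 HEK293 marker genes with a probe, 4 were detected on at least 5 arrays (NEFL, NEFM, INA and EYA1), whereas PAX2 and LHX1 were detected on none. NEFM was itself up-regulated in mutDFNA5, by 0.75 (adjusted p = 8.91e-07), and its part in the results below was not tested. Of 8 marker genes of other lineages, PECAM1 was detected on 9 arrays, COL1A1 on 2, and the other 6 on none. The probe for DFNA5 read 8.02 ± 0.22 (SD, n = 5) on the wtDFNA5 arrays, whereas the mutDFNA5 arrays read 8.05 ± 0.20 (SD, n = 6), limma adjusted p = 0.908. The lowest detected signals of the arrays were 7.36 to 7.46. Whether this probe reads the transfected cDNAs was not tested, so its values do not compare the levels of the constructs.

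The complete proteasome has a catalytic core and 1 or more caps. In the 20S core, PSMA genes encode the outer alpha rings and PSMB genes the inner beta rings, where PSMB5, PSMB6 and PSMB7 carry the proteolytic sites. The 19S cap recognises ubiquitin chains and unfolds substrates: its base holds a ring of PSMC ATPases and the scaffolds PSMD1 and PSMD2, and its lid holds the deubiquitinase PSMD14. PSME genes encode alternative activators, and the PSMG chaperones with POMP assemble the core. When proteasome activity falls short, the transcription factor NFE2L1 raises subunit genes together through antioxidant response elements in their promoters.

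Sequences upstream of the start site are shown for the 10 tested members that hold the element motif TGACNNNGC on either strand, because this is the sequence through which proteasome genes are known to be raised together. RefSeq promoters (GRCh38.p14) covered 40 of the 45 members, with 48 start sites. In the 250 bases before the start the motif stood at 12 of 48 member starts (25%), against 3830 of all 35116 starts (10.9%). Each line gives 30 bases in the direction of the gene, 5′ to 3′, with the motif in capitals. The PSME4 sequence holds it on the opposite strand.
PSME4 (chr2:53971009-53971038, minus strand): gcccggcggctGCAGCGTCAccagcagagc
PSMD3 (chr17:39980759-39980788, plus strand): ttcccctttgtTGACTCGGCcatcggcctg
PSMD12 (chr17:67366724-67366753, minus strand): gagacaaaaccTGACGCTGCaggctggagt
PSMB3 (chr17:38752626-38752655, plus strand): cgcctccgtttTGACTTTGCaaccaaacta
PSMA4 (chr15:78540649-78540678, plus strand): cgtgggcacgaTGACTCTGCaccgcctcct
PSMD5 (chr9:120843038-120843067, minus strand): ctggctacagtTGACACGGCcctaacggag
PSME1 (chr14:24136097-24136126, plus strand): catggcagggcTGACCCCGCctcctccatc
PSME2 (chr14:24146767-24146796, minus strand): cccctggactgTGACCCAGCcagcaccgcc
PSMG1 (chr21:39183616-39183645, minus strand): ggcccagggcaTGACAGCGCgggcgggcgg
PSMG2 (chr18:12658688-12658717, plus strand): gcagtttcccgTGACCCCGCggccgctctg

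The median change of these 10 genes was 0.02, against -0.04 for the 23 tested members whose promoters in the table lack the motif. A match describes letters in the window and says nothing of whether a factor was bound there. The CCAAT box (CCAAT, either strand) stood at 35.4% of member starts and at 32% of all starts, and the median change was -0.04 for the 15 tested members with it and -0.03 for the 18 without. PSME4, whose promoter is the first line above, was the one member called.

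Of the 38 members tested, 1 was called higher in mutDFNA5 and 0 were called lower. Over all 9653 genes tested, 391 (4.05%) were called higher and 475 (4.92%) lower, or 8.97% in either direction. At an unadjusted p under 0.05 by limma, 1 member was higher and 3 were lower, which is 10.5% of members against 23.8% of all genes. Wild type and mutant arrays did not overlap for 1 member, PSMC1, whereas they did not overlap for 6.62% of all genes. Changes of the members ran from -0.22 to 0.27 on the log2 scale.

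The intervals of the normalized values were narrow. At the probe chosen for each gene, the 95% confidence interval of the change lay within 0.5 log2 units of 0 on both sides for all 38 members, as it did for 94.4% of all genes. The widest upper bound was 0.45, for PSMD3, and the furthest lower bound was -0.40, for PSMD1. Among the other tested probes of members, lower bounds reached -0.45 for PSMD10 and -0.44 for PSMA4. These intervals cover the spread between arrays, and signals near the background understate a change. The median residual SD was 0.11 for members and 0.14 for all genes. Of the 38 changes, 27 (71.1%) were below 0, against 51.5% of all genes, and the median change was -0.04, against -0.01 for all genes. With each array scaled to its median instead of quantile-normalized, the median of all genes moved to 0.07 and that of the members to 0.05, so the sign of the members' median depended on the scaling. Relative to all genes the members' median was -0.03 with quantile normalization and -0.02 with median scaling. In these bulk samples, fewer cells that express a gene and less of its RNA per cell cannot be told apart.

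**Figure D1:**
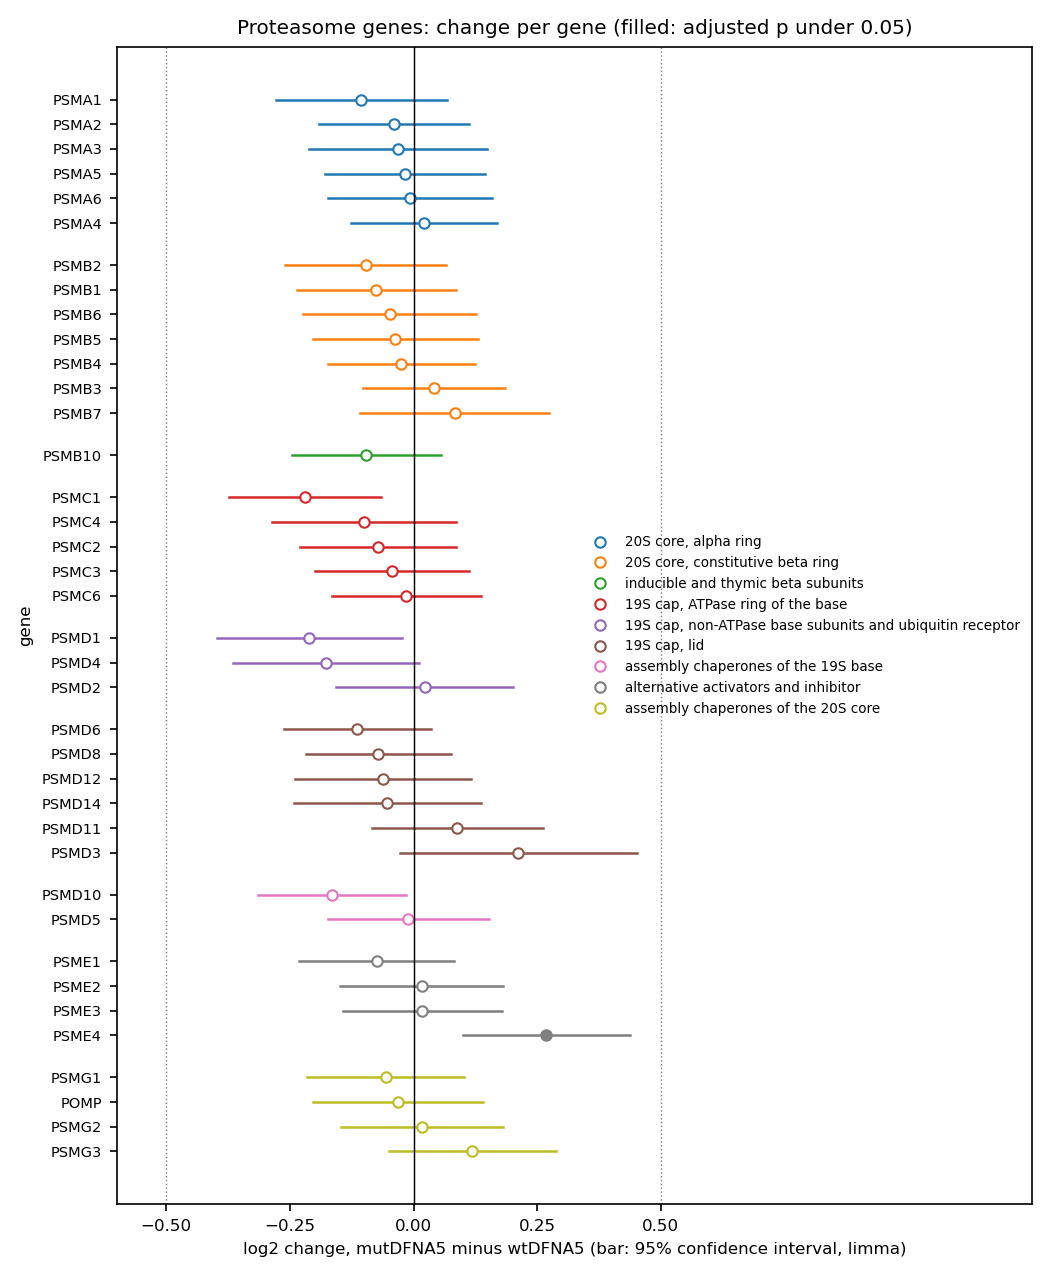
Log2 change (mutDFNA5 minus wtDFNA5, x axis) of each tested proteasome gene, grouped and coloured by class, with the 95% confidence interval from limma as a bar and dotted lines at 0.5 on either side of 0. PSME4 is the one filled point among the members (0.27), and every member's bar lies between the dotted lines.

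PSME4 encodes PA200, a large single-chain activator that opens the core for substrates not carrying ubiquitin, acetylated histones among them. The wtDFNA5 arrays read 10.88, 10.64, 10.85, 10.80 and 10.71, and the mutDFNA5 arrays ran from 10.84 through a median of 11.04 to 11.20. Of the 6 mutDFNA5 arrays, 5 lay above every wtDFNA5 array, and the lowest fell inside the wild type range. PSME4 was thus up-regulated from 10.78 ± 0.10 (SD, n = 5) to 11.05 ± 0.14 (SD, n = 6), a change of 0.27 or 1.204-fold, with a 95% interval of 0.10 to 0.44 (limma, adjusted p = 0.0429).

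The PSME4 call stood close to the threshold. The change stayed positive in all 19 alternative analyses, between 0.24 and 0.37, but the adjusted p ranged from 0.0269 to 0.111 and was under 0.05 in 8 of the 19. Settings that ended it included normexp background correction (adjusted p = 0.0826), median scaling (0.0798) and no detection filter (0.0934). Of the 11 single arrays left out in turn, 7 ended the call: wtDFNA5 replicate 2 (0.111), 4 (0.061) or 5 (0.0934), and mutDFNA5 replicate 1 (0.076), 2 (0.0948), 3 (0.0535) or 5 (0.0919).

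**Figure D2:**
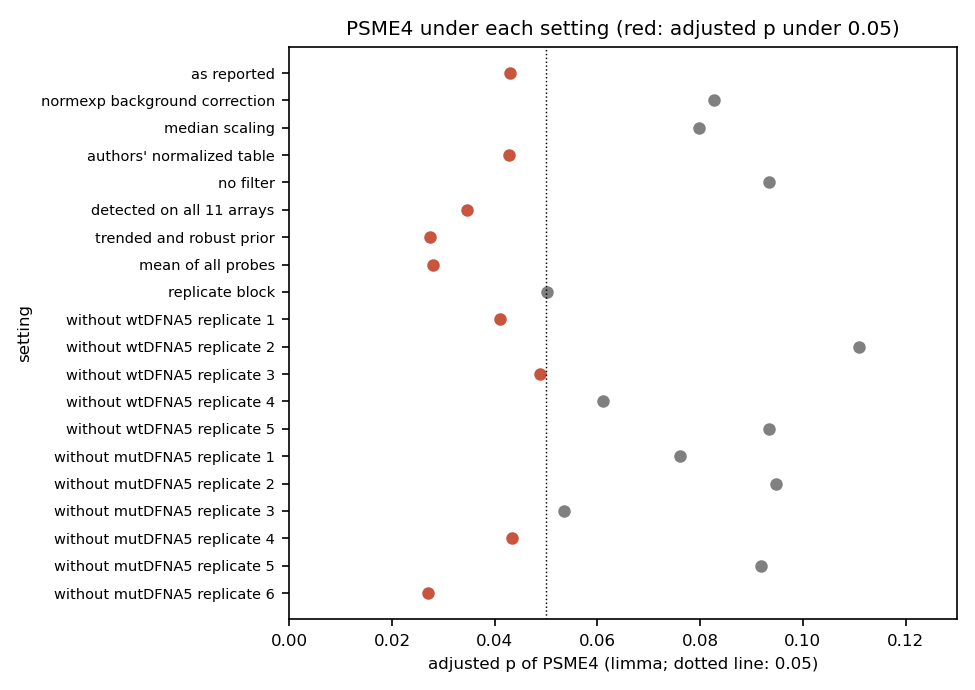
Adjusted p of PSME4 from limma (x axis) in the reported analysis and in each alternative (rows), red where it is under 0.05 and grey where it is not. The reported value is 0.0429, and 8 of the 19 alternatives lie left of the dotted line at 0.05.

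No other activator was called. PSME1 and PSME2 encode the interferon-inducible ring known as PA28 alpha and beta, and PSME3 its nuclear relative PA28 gamma. PSME1 changed by -0.07 (95% interval -0.23 to 0.08, adjusted p = 0.604), PSME2 by 0.02 (-0.15 to 0.18, adjusted p = 0.93) and PSME3 by 0.02 (-0.14 to 0.18, adjusted p = 0.921). PSMF1, which encodes the inhibitor PI31, was not detected on any array, so the activators could not be set beside it. A probe that is not detected does not show its gene to be silent, here or for the members below. For POMP, a further probe was detected on 0 arrays and the tested probe on all 11.

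Among the alpha-ring genes, 0 of 6 tested were called and the changes lay between -0.11 and 0.02, with a median of -0.02. PSMA1 had the smallest p of this group. Its wtDFNA5 arrays read 13.83, 13.41, 13.48, 13.44 and 13.61, and its mutDFNA5 arrays ran from 13.28 through a median of 13.46 to 13.56. The groups overlapped, and the change was -0.11 (95% interval -0.28 to 0.07, adjusted p = 0.487). A further PSMA1 probe gave 0.01 (adjusted p = 0.972). The 2 probes of PSMA4 differed: the brighter gave 0.02 (adjusted p = 0.895), whereas the other gave -0.25 with all 6 mutDFNA5 arrays below the wtDFNA5 mean (adjusted p = 0.108). PSMA8, the testis-specific relative of PSMA7, was not detected on any array.

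Among the 7 constitutive beta-ring genes 0 were called, and the changes lay between -0.10 and 0.08. The catalytic subunits come first. PSMB5, the chymotrypsin-like subunit and the main target of bortezomib, read 12.96, 12.87, 12.72, 12.94 and 12.99 in wtDFNA5 and 12.68 to 13.05, median 12.86, in mutDFNA5. PSMB6, the caspase-like subunit, read 13.30, 13.33, 13.23, 13.50 and 13.46 in wtDFNA5 and 13.07 to 13.48, median 13.34, in mutDFNA5. PSMB7, the trypsin-like subunit, read 13.49, 13.66, 13.89, 13.98 and 13.92 in wtDFNA5 and 13.75 to 14.10, median 13.82, in mutDFNA5. For each of the 3 the groups overlapped. The changes were -0.04 for PSMB5 (95% interval -0.20 to 0.13, adjusted p = 0.83), -0.05 for PSMB6 (-0.22 to 0.13, adjusted p = 0.784) and 0.08 for PSMB7 (-0.11 to 0.27, adjusted p = 0.636). PSMB2, a structural subunit, had the smallest p of the beta-ring genes, with a change of -0.10 (adjusted p = 0.496) and all 6 mutDFNA5 arrays below the wtDFNA5 mean but none below its lowest array.

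The inducible catalytic subunits, which replace the constitutive ones in the immunoproteasome of interferon-treated and lymphoid cells, were mostly not detected. None of the 4 probes of PSMB8 and neither of the 2 probes of PSMB9 was detected on any of the 11 arrays, and PSMB11, the thymus-specific subunit, was not detected either. PSMB10 was the exception. Its wtDFNA5 arrays read 11.57, 11.63, 11.50, 11.74 and 11.72, and its mutDFNA5 arrays 11.46 to 11.63, median 11.53, with overlap. The change was -0.10 (95% interval -0.25 to 0.06, adjusted p = 0.463).

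In the cap, 0 of 14 tested genes were called, and the 5 ATPase genes all had values below 0 with quantile normalization, from -0.22 to -0.01. Their median was -0.07, and 0.01 with median scaling, where that of all genes was 0.07. PSMC1, an ATPase of the base ring, had the most negative change among members at their chosen probes. Its wtDFNA5 arrays read 13.83, 13.92, 14.15, 13.88 and 13.88, and its mutDFNA5 arrays ran from 13.64 through 13.72 to 13.76. The groups did not overlap, and replicate 3 set the top of the wild type range. The change was -0.22 (1.16-fold lower, 95% interval -0.37 to -0.07), which missed the threshold (limma, adjusted p = 0.0695; 0.183 without wtDFNA5 replicate 3) and passed it only with a trended, robust prior (0.0268) among the 19 alternatives. The other PSMC1 probe gave -0.06 with overlapping groups (adjusted p = 0.682). RefSeq lists 13 processed or other pseudogenes named for PSMC1, and whether either probe also reads their transcripts was not tested.

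The 3 probes of PSMC4, another ATPase, gave -0.10, -0.14 and 0.12 (adjusted p = 0.546, 0.351 and 0.419). PSMC2 changed by -0.07, PSMC3 by -0.04 and PSMC6 by -0.01, with adjusted p of 0.62 to 0.932. The ATPase values thus shared a sign at the probe chosen for each gene, but not across all probes.

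The non-ATPase subunits of the base were PSMD1, PSMD2 and PSMD4. PSMD1, a scaffold on which the ubiquitin receptor ADRM1 sits, read 11.59, 11.76, 11.76, 12.14 and 11.73 in wtDFNA5 and 11.45 to 11.74, median 11.58, in mutDFNA5. All 6 mutDFNA5 arrays lay below the wtDFNA5 mean, 3 of them below every wtDFNA5 array, and the change was -0.21 (95% interval -0.40 to -0.02, adjusted p = 0.155). PSMD4, the ubiquitin receptor also known as Rpn10, gave -0.18 at its brighter probe (adjusted p = 0.25) and -0.21 at another (adjusted p = 0.13). PSMD2, the other scaffold, gave 0.02 (adjusted p = 0.911).

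Of the 6 lid genes tested 0 were called, and PSMD3, a structural lid subunit, had the most positive value of the cap. Its wtDFNA5 arrays read 8.94, 9.26, 9.13, 8.74 and 9.09, and its mutDFNA5 arrays ran from 8.78 through 9.29 to 9.58. Only 3 of the 6 mutDFNA5 arrays exceeded the wild type range, and the change was 0.21 (95% interval -0.03 to 0.45, adjusted p = 0.277). PSMD14, the deubiquitinase that removes the chain before degradation, gave -0.05 (adjusted p = 0.779). PSMD6, PSMD8, PSMD11 and PSMD12 lay between -0.11 and 0.09.

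**Figure D3:**
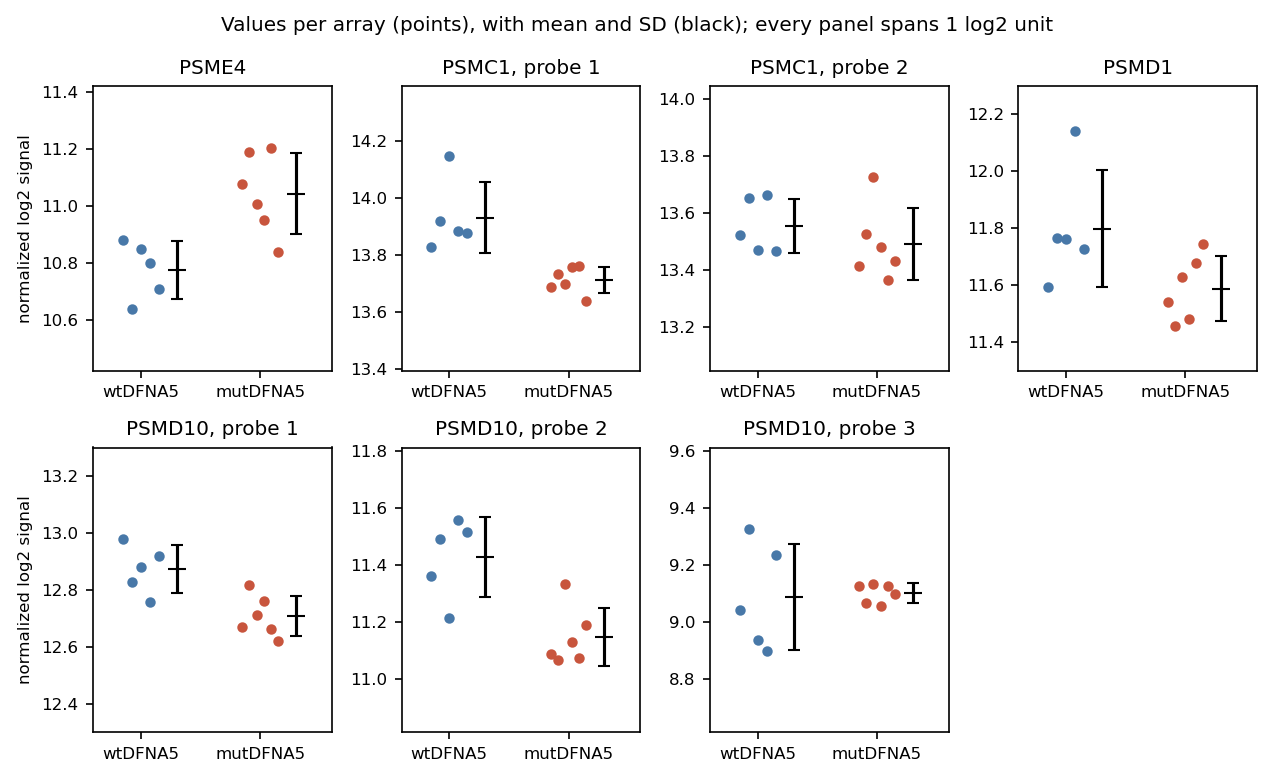
Normalized log2 signal per array (points; y axis, each panel spanning 1 log2 unit) for every tested probe of PSME4, PSMC1, PSMD1 and PSMD10, with the group mean and SD in black. PSME4 sits higher in mutDFNA5 on 5 of 6 arrays, whereas the probes of PSMC1 and PSMD10 differ from each other in how far the groups separate.

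Assembly factors of the cap gave 0 calls at gene level. PSMD10, or gankyrin, is a chaperone of the base that is also studied as an oncoprotein. At its brightest probe the wtDFNA5 arrays read 12.98, 12.83, 12.88, 12.76 and 12.92 and the mutDFNA5 arrays 12.62 to 12.82, median 12.69, a change of -0.16 (95% interval -0.31 to -0.01, adjusted p = 0.168). A second PSMD10 probe was itself past the threshold, at -0.28 (11.43 ± 0.14, n = 5, to 11.15 ± 0.10, n = 6, limma adjusted p = 0.0313), and the other gave 0.01 (adjusted p = 0.944). Settings that ended the call of the second probe included median scaling (-0.18, adjusted p = 0.388), normexp correction (0.068) and leaving out any 1 of wtDFNA5 replicates 2, 4 and 5 or mutDFNA5 replicates 1, 2, 4 and 5 (adjusted p = 0.051 to 0.077). PSMD5 gave -0.01 (adjusted p = 0.953), and PSMD9 was not detected on any array.

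Assembly factors of the core were PSMG1, PSMG2 and PSMG3, chaperones of the alpha ring, and POMP, which guides the beta subunits into place. PSMG3 had the smallest p of this group: its wtDFNA5 arrays read 9.43, 9.36, 9.46, 9.42 and 9.61 and its mutDFNA5 arrays 9.33 to 9.76, median 9.62. The groups overlapped, and the change was 0.12 (95% interval -0.05 to 0.29, adjusted p = 0.407). PSMG1, PSMG2 and POMP lay between -0.06 and 0.02, with adjusted p of 0.711 to 0.925. PSMG4 was not detected on any array.

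The core was then set beside the cap. The median change was -0.03 over 13 core genes and -0.07 over 14 cap genes, a gap within the spread of the arrays. Each gene was centred on its mean over the 11 arrays and averaged per array. The core ran from -0.005 to 0.073 in wtDFNA5 and from -0.074 to 0.023 in mutDFNA5, and the cap from -0.015 to 0.076 and from -0.084 to 0.001. Core minus cap ran from -0.080 to 0.014 in wtDFNA5 and from -0.047 to 0.068 in mutDFNA5. In all 3 measures the groups overlapped.

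Within the cap, the base (ATPases with PSMD1, PSMD2 and PSMD4) averaged 0.06 in wtDFNA5 and -0.05 in mutDFNA5, with 2 wtDFNA5 arrays, replicates 1 and 2, inside the mutDFNA5 range. The lid averaged 0.00 in both groups. With median scaling the median changes were 0.06 for the core and 0.04 for the cap, so both signs turned. The median change of the core minus that of the cap stayed between 0.00 and 0.08 in all alternatives. These averages are given as descriptions with no p, because members are not replicates. The members were also chosen with results of these data known.

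**Figure D4:**
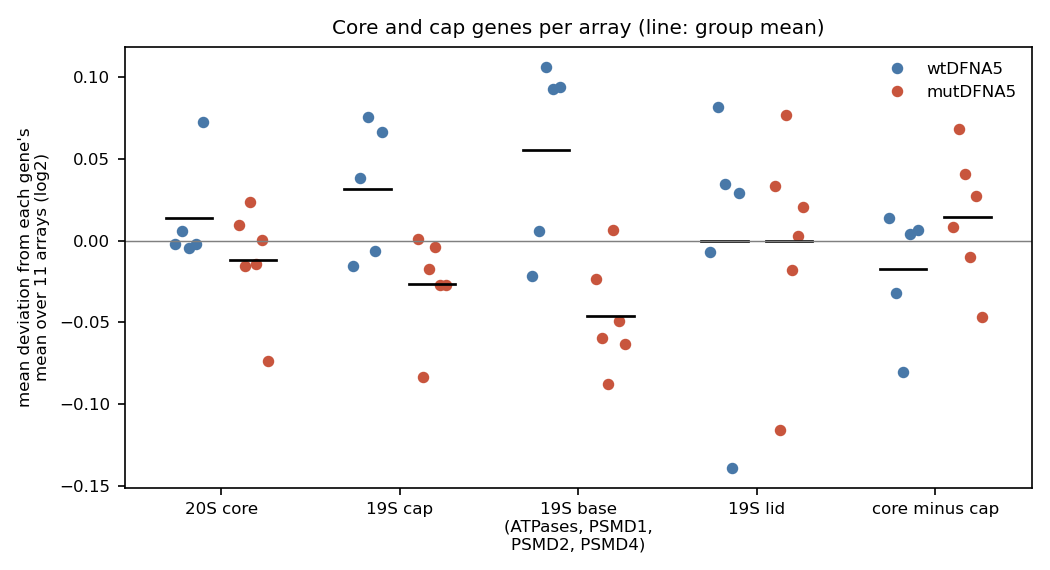
Mean deviation of core, cap, base and lid genes from each gene's own mean over 11 arrays (y axis, log2), and core minus cap, 1 point per array, with a line at each group mean. The 2 groups overlap for every measure, and the base shows the largest gap between group means among those drawn, 0.06 against -0.05.

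Shared movement from array to array was described within groups. After subtracting group means, the mean pairwise correlation over the 11 arrays was 0.01 among the 38 members, 0.00 among core genes and 0.02 among cap genes, against 0.00 among all genes tested. These pairs share arrays and normalization, and the values are descriptions.

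Lists of genes that work with the proteasome are given beside the 8.97% of all 9653 genes tested that were called in either direction. Their shares were not tested against it. Among 13 tested partners (deubiquitinases, ubiquitin ligases and adaptors that sit on the proteasome), 0 were called higher and 2 lower, and the median was 0.06. ZFAND2A, the arsenite-inducible adaptor also called AIRAP, read 10.33, 10.05, 10.25, 9.96 and 10.40 in wtDFNA5 and 9.67 to 9.82, median 9.71, in mutDFNA5. The groups did not overlap, and ZFAND2A was down-regulated by 0.47 on the log2 scale, a change of -0.47 (adjusted p = 0.00115). PAAF1, which binds the ATPases and holds the cap apart from the core, read 10.06, 10.22, 10.08, 10.17 and 10.17 in wtDFNA5 and 9.49 to 9.93, median 9.77, in mutDFNA5. It was down-regulated too, with a change of -0.39 and no overlap (adjusted p = 0.0048). The list also holds ADRM1 and SEM1, cap subunits whose symbols fall outside the naming rule, which gave -0.03 and 0.01. UCHL5 and USP14, deubiquitinases of the cap, gave -0.16 and 0.06. The calls of ZFAND2A and PAAF1 were lost with median scaling (-0.36, adjusted p = 0.116, and -0.29, adjusted p = 0.163) and held in the other 18 alternatives.

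Of the 3 tested genes for ubiquitin and its activating enzymes 0 were called. UBA6 gave 0.32 (adjusted p = 0.0621), and was called when wtDFNA5 replicate 1 (adjusted p = 0.0429) or mutDFNA5 replicate 4 (0.0457) was left out. Of 11 shuttle factors and subunits of the VCP segregase 0 were called, and UBQLN4, which carries ubiquitinated proteins to the cap, had the smallest p (0.19, adjusted p = 0.102).

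Of 9 tested transcription factors and regulators of subunit genes, 2 were called higher and 0 lower. MAFF, a small MAF partner of the NFE2L factors, was detected on 3 of 5 wtDFNA5 arrays and on all 6 mutDFNA5 arrays. It rose from 7.40 ± 0.07 (SD, n = 5) to 8.33 ± 0.13 (SD, n = 6), a change of 0.93 (adjusted p = 1.79e-08). Its wtDFNA5 level lay at the lowest detected signals of the arrays (7.36 to 7.46), so the size of the change is not exact: it was 1.89 with normexp correction and 0.53 with the mean of both probes, and it was called in all 18 alternatives that gave a value. The second MAFF probe alone gave 0.14 (adjusted p = 0.395). NFYA, a subunit of the factor that binds CCAAT boxes, rose from 8.74 ± 0.12 (SD, n = 5) to 9.16 ± 0.10 (SD, n = 6), a change of 0.42 (adjusted p = 0.0016). NFE2L1 itself gave 0.07 (adjusted p = 0.704) and its relative NFE2L2 0.05 (adjusted p = 0.732).

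Of 8 tested genes of antigen processing by class I molecules, which present proteasome products, 1 was called. ERAP2, an aminopeptidase of the endoplasmic reticulum, fell from 13.56 ± 0.23 (SD, n = 5) to 12.94 ± 0.25 (SD, n = 6), a change of -0.62 (adjusted p = 0.0016). TAP1, the peptide transporter whose gene adjoins PSMB9, gave -0.13 (adjusted p = 0.343).

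Other large complexes were described in the same way. The COP9 signalosome and eIF3 share the lid's architecture: of their 22 tested genes 1 was called, EIF3B at 0.24 (adjusted p = 0.0476), a call kept in 5 of 19 alternatives. It was lost with normexp correction (0.0826) and median scaling (0.0772), and leaving out any single array ended it (adjusted p up to 0.0983) other than wtDFNA5 replicate 4 or mutDFNA5 replicate 3. At further EIF3B probes the change was 0.34 (limma, adjusted p = 0.0454) and 0.08 (adjusted p = 0.681). The median of the 22 genes was -0.03, and 0.05 with median scaling. Of the 8 subunits of the cytosolic chaperonin CCT 0 were called, and the median was 0.05. None of these lists was tested against the proteasome genes.

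**Figure D5:**
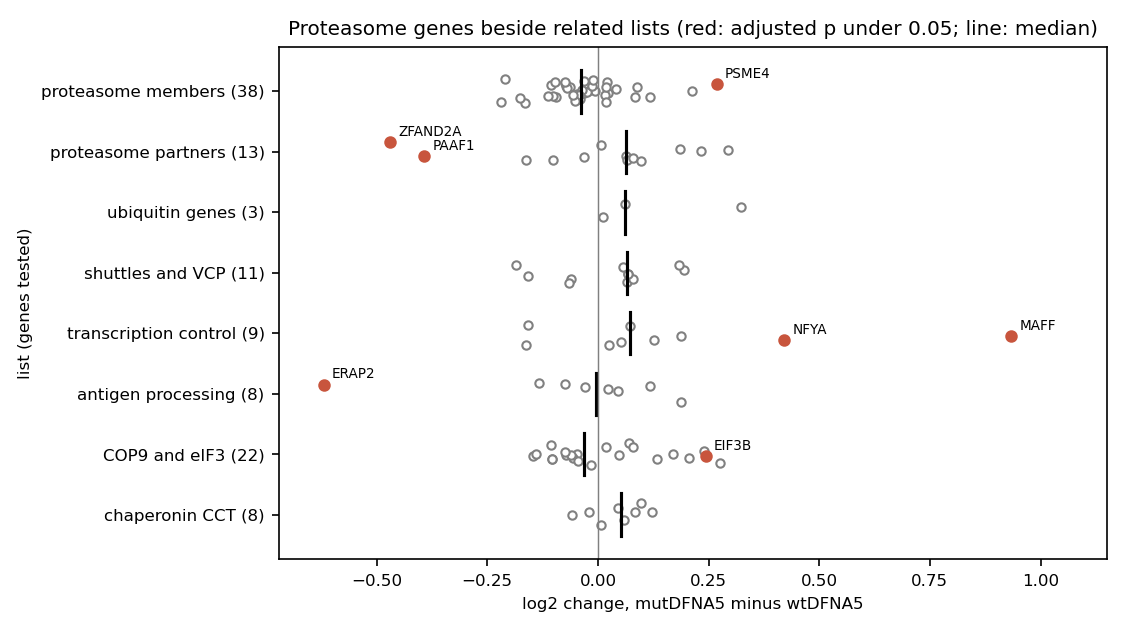
Log2 change (x axis) of each tested gene in the proteasome group and in 7 related lists (y axis, number of genes tested in brackets), with the median as a black line and genes of adjusted p under 0.05 in red. PSME4 is the single red point of the 38 proteasome members. The related lists hold red points on both sides of 0, among them NFYA (0.42) and ERAP2 (-0.62). Of all genes tested, 8.97% were called. The MAFF point (0.93) rests on a wtDFNA5 level near the background.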

How the data were processed

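Biotin-labelled cRNA, amplified from RNA of HEK293T cells, was hybridized to Illumina HT12 beadchips, 5 wtDFNA5 and 6 mutDFNA5 (titles of the latter read KO). The deposited non-normalized table holds log2 signals that the authors summarized per probe, with a detection p-value for each probe and array, which the authors' software supplied; a further deposited table holds log2 signals after their quantile normalization. The submitters' notes name limma 3.24.4.

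Quantile normalization of the log2 signals was repeated here, and no value lay more than 0.019 from its counterpart in the deposited table. Probes with a detection p under 0.01 on at least 5 of 11 arrays were tested (14542 probes, 9653 genes) with limma 3.58.1 in R 4.3.3 and Benjamini-Hochberg adjustment over all of them. A gene was read by its probe of highest mean over all arrays. The fit used no block and was checked on simulated data. There 22.4% of log2 changes of 0.25 and 85.1% of changes of 0.5 were recovered, and 4.17% of calls were false. A member that was not called can thus still differ by about 0.25. Precision is limited by how many arrays there were.

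Of the 42000 probes, 27916 had 1 gene symbol, 7 several, and 14077 were not listed or had none. The annotation, which can be old, names a later HT12 version than the methods. PSMA7, PSMC5, PSMD7 and PSMD13 had no named probe and were not analysed here. The members, classes and related lists were chosen with earlier results of these data known. Members described in full were those called, the smallest p in each class, and the catalytic subunits; PSMA4, PSMC4, PSMD4 and the further probes were added after their values were seen. In related lists, genes called or of smallest p were named, with NFE2L1, NFE2L2, TAP1, ADRM1, SEM1, UCHL5 and USP14 added later. P-values measure the spread between these arrays. Alternatives were normexp (offset 16), median scaling, the authors' table, other filters, a trended robust prior, means over probes, a replicate block and leaving out each array.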

Additional observations from a re-analysis of the deposited data

Results flagged for a closer look

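In 48 groups of values, 3 held an array far from the rest of its group, and chance alone marks about 1 in 20. PSMC1 read 14.149 in wtDFNA5 replicate 3, where the nearest wtDFNA5 array read 13.922. Without that array the change of PSMC1 was -0.17 (limma, adjusted p = 0.183). The mean deviation of the core genes was 0.073 in wtDFNA5 replicate 5, against 0.006 for the nearest array. The mean deviation of the cap genes was -0.084 in mutDFNA5 replicate 2, against -0.027 for the nearest array.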

How the results depend on the processing

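The number of members called higher went from 1 to 0 with normexp correction, with median scaling, with no filter and with the replicate block, and was 0 to 1 when single arrays were left out, with PSME4 as the gene concerned. The number called lower went from 0 to 1 (PSMC1) with a trended and robust prior. With median scaling the median change was 0.063 for the core and 0.035 for the cap, where the median of all genes was 0.068 and the calls over all genes were 270 higher and 54 lower, against 391 and 475. All other values for these counts and medians, 85 in number, kept their direction and their side of the threshold or moved by less than the spread. Replicate numbers did not pair the samples: correlations of same-numbered arrays ran from -0.058 to 0.108 over 5 pairs, and 1 of 5 wtDFNA5 arrays lay closest to its own number. With the replicate block 259 genes were called higher and 298 lower, PSME4 gave 0.31 (adjusted p = 0.0502), the second PSMD10 probe gave -0.29 (0.078) and UBA6 was called (0.0227). With no filter 279 and 299 genes were called of 18836. Members near the background, such as PSMD5, have compressed changes. The cause of these differences was not tested.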
